A study of Mus musculus with 114 samples.

Results

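The TGF-beta ligands, receptors and Smads are described here in isolated adipocytes of 38 mice. The members were 10 genes of 29132 measured, taken by symbol. They are the ligands Tgfb1, Tgfb2 and Tgfb3, the receptors Tgfbr1, Tgfbr2 and Tgfbr3, and the signal transducers Smad2, Smad3, Smad4 and Smad7. Male C57BL/6 mice (C57BL/6J in the methods) received chow (CD) or high fat food (HFD) from 6 weeks of age. RNA of perigonadal adipocytes was sequenced after 8 weeks (6 CD and 6 HFD mice), 20 weeks (6 and 6) and 34 weeks (8 and 6). No transgene or drug is named in the labels, and both diets of a time were of the same age. Adipocytes were taken as the floating fraction of collagenase-digested fat, which can carry attached cells of other types. Expression was given as CPM, the reads of a gene per 1000000 reads on all listed genes of a mouse.

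TGF-beta ligands are secreted in a latent form, held by a propeptide and by binding proteins in the extracellular matrix. The released dimer binds the type 2 receptor Tgfbr2, often presented by the co-receptor Tgfbr3 (betaglycan), and Tgfbr2 then phosphorylates the type 1 receptor Tgfbr1 (ALK5). Tgfbr1 phosphorylates Smad2 and Smad3, which enter the nucleus with the shared partner Smad4, and Smad7 blocks Tgfbr1 and is itself induced by the pathway. In adipose tissue the pathway is known for restraining adipocyte differentiation and for matrix deposition.

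The start regions of 4 members are shown. They set the genes called higher in HFD mice at 20 and 34 weeks (Tgfb1, Tgfbr1 and Tgfbr2) beside Smad3. Smad3 was not called by diet at any time in the main fit, limma on CPM as given. Each is promoter sequence, the 250 bases before a RefSeq transcription start on GRCm38.p6, read on the strand of the gene. They lie at chr7:25686752-25687001 (Tgfb1, plus strand), chr4:47352972-47353221 (Tgfbr1, plus), chr9:116175364-116175613 (Tgfbr2, minus) and chr9:63757995-63758244 (Smad3, minus). Capitals mark matches on either strand to a GC box (GGGCGG), a Smad box (CAGAC), an AP-1 site (TGANTCA), a CArG box or a TATA box (TATAAA).
Tgfb1: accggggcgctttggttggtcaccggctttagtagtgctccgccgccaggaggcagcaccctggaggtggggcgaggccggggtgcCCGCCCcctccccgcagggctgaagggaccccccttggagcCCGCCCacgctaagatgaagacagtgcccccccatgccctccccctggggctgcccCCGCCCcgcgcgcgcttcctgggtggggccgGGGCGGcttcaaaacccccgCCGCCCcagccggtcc
Tgfbr1: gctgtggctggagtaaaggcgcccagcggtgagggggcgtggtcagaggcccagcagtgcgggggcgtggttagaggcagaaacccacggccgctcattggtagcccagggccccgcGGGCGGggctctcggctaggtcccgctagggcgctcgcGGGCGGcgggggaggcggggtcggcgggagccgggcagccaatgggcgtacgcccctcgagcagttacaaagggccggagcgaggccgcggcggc
Tgfbr2: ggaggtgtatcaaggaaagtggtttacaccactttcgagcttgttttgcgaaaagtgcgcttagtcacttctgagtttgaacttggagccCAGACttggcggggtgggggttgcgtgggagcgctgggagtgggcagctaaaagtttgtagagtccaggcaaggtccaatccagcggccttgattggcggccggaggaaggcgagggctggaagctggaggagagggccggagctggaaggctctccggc
Smad3: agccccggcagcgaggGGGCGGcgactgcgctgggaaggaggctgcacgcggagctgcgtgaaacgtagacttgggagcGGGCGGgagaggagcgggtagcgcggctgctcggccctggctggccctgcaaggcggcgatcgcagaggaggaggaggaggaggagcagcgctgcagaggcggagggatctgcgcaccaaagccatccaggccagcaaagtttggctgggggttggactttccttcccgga

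The Tgfb1 window held 5 GC boxes, and those of Tgfbr1 and Smad3 held 2 each. At least 1 GC box stood in 32.7% of 32851 windows of the same length over all genes. The Tgfbr2 window held no GC box and 1 Smad box, a motif found in 42.2% of all windows. AP-1 sites, CArG boxes and TATA boxes were not found in these 4 windows and stood in 6.75%, 1.47% and 12.4% of all windows. The GC content was 75.2% for Tgfb1, 74.8% for Tgfbr1, 58.4% for Tgfbr2 and 69.2% for Smad3, with a median of 52.4% over all windows. GC boxes were thus present in a gene called higher at each time, Tgfb1, and in one without a call, Smad3. Of the 10 members 5 had a window that could be shown, and that of Tgfb2 is not printed. Tgfbr1 has a second listed start, whose window (chr4:47385966-47386215, 52.8% GC) held no GC box and 1 Smad box and is not printed either.

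The libraries held 9275711 to 15480388 reads on genes per mouse, so that 1 read equals 0.0646 to 0.108 CPM. All 11 adipocyte markers were tested, and their mean log2(CPM + 1) was 11.18 ± 0.11 (SD) in CD and 10.17 ± 0.47 in HFD mice at the ends of its range, 8 and 34 weeks. By the mean correlation over tested genes, 6 of 38 mice resembled the other diet of their time more than their own group, 4 of 8 CD mice at 34 weeks and 2 of 6 HFD mice at 8 weeks. CD mouse 5 at 34 weeks stood farthest apart, with r = 0.06 to its own group and 0.64 to HFD mice of 34 weeks. Several results at 34 weeks are given with and without it, a choice made after its values were seen.

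The adipocyte fraction of HFD mice held more Tgfb1 than that of CD mice at all 3 times. It held less Tgfbr1 and Tgfbr3 at 8 weeks, more Tgfb3 at 8 and 20 weeks, and more Tgfbr1 and Tgfbr2 at 20 and 34 weeks. The calls of Tgfbr1 and Tgfb3 at 8 weeks were lost on leaving out some single mice, as described below. Smad3, Smad4 and Smad7 were not called at any time, and Smad2 was called at 20 weeks. With other scalings Smad3 was called lower at 8 weeks and Smad2 was not called at 20 weeks, as given with each gene. Of the 8 calls for Tgfb1, Tgfbr1 and Tgfbr2, 3 held with a macrophage marker covariate and 1 with a progenitor and fibroblast marker covariate, as given with each gene. These fits also called fewer of the 10343 tested genes at 8, 20 and 34 weeks. They called 3979, 3654 and 1145 with the macrophage and 2509, 214 and 440 with the progenitor covariate, against 4648, 5894 and 4468 without. The test was limma on log2(CPM + 1), so that every fold change below is on that scale and understates the change of low genes. Of the 10 members 9 passed the filter on low values, and Tgfb2 did not. At 8 weeks 4 of 9 were called (adjusted p below 0.05), 2 higher and 2 lower in HFD mice, beside 44.9% of 10343 tested genes (29.8% higher and 15.1% lower). At 20 weeks 5 of 9 were called, all of them higher, beside 57.0% of tested genes (38.3% higher and 18.7% lower). At 34 weeks 3 of 9 were called, all of them higher, beside 43.2% (27.5% higher and 15.7% lower), and without CD mouse 5 this count was 4. The share of members called was thus no larger than that of all tested genes.

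The diets did not overlap for 1 of 9 tested members at 8 weeks (22.8% of tested genes), for 3 at 20 weeks (37.2%) and for 0 at 34 weeks (2.46%). The median difference of the 9 members was 0.04, 0.25 and 0.09 at 8, 20 and 34 weeks, beside 0.11, 0.14 and 0.07 for all tested genes. TMM scaling shifted the median of all genes at 20 weeks by -0.19, from 0.14 to -0.05. The share of calls that were higher was 66.3%, 67.1% and 63.6% at the 3 times, and 49.9%, 46.4% and 50.4% with TMM. Differences near this shift, such as that of Smad2, depend on the scale.

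**Figure D1:**
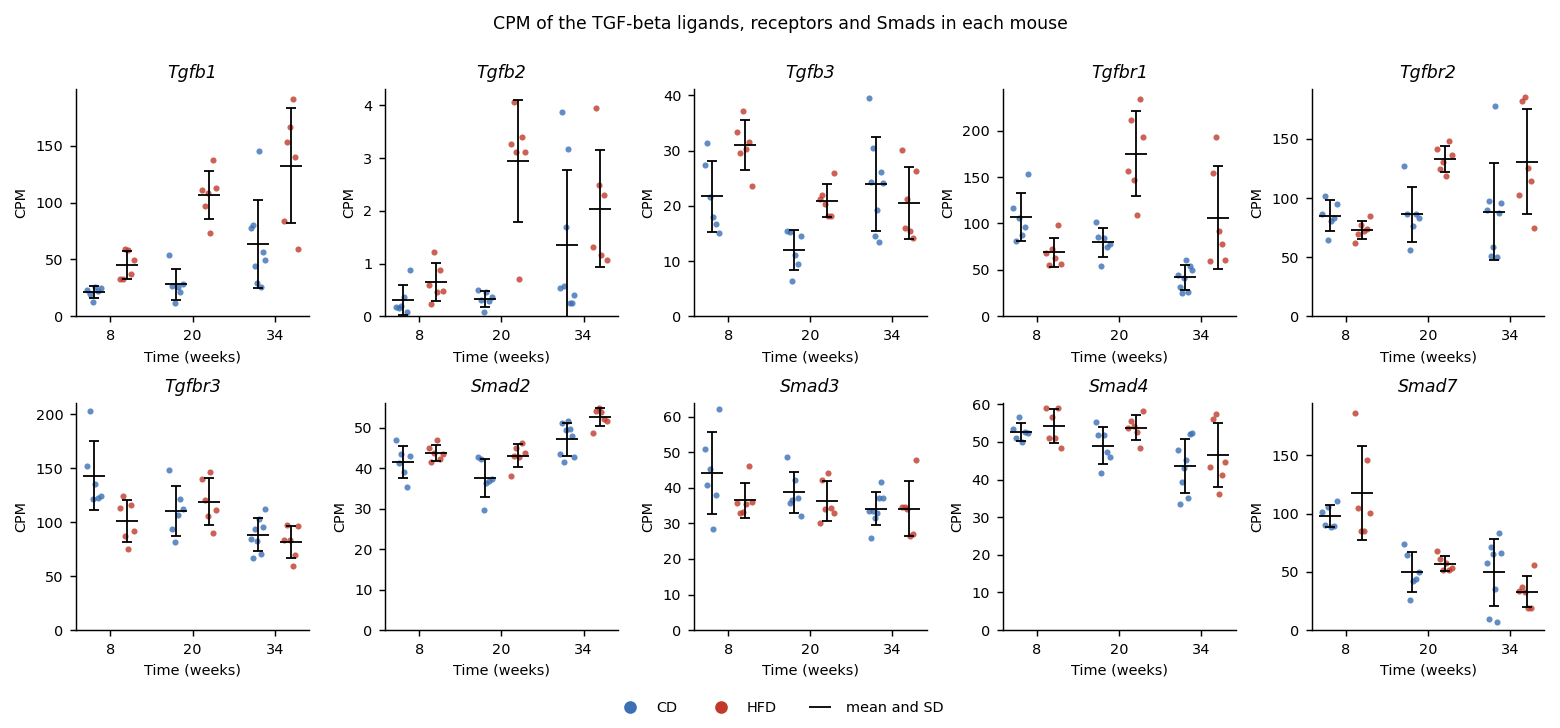
CPM (vertical axes, from 0) of the 10 genes in each of 38 mice at 8, 20 and 34 weeks (horizontal axes), with 1 point per mouse, CD in blue and HFD in red, and black bars for the mean and SD of a group. All 6 HFD mice lie above all 6 CD mice for Tgfb1 at 8 and 20 weeks and for Tgfb2, Tgfb3 and Tgfbr1 at 20 weeks.

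Tgfb1 (Entrez 21803, chr7:25687002-25705077) encodes the main TGF-beta ligand of immune and stromal cells. At 8 weeks its lowest, median and highest values were 12.2, 23.0 and 25.6 CPM in CD and 32.7, 43.4 and 58.8 CPM in HFD mice. At 20 weeks these values were 12.1, 26.2 and 53.7 CPM in CD and 73.5, 109.8 and 138 CPM in HFD mice. Every HFD mouse was above every CD mouse at both times. At 34 weeks CD mice were at 25.9, 53.2 and 146 CPM and HFD mice at 58.8, 147 and 191 CPM. Here 3 of 6 HFD mice were above all 8 CD mice, and the highest CD value was that of mouse 5. The log2 fold change was 1.03 (SE 0.32, adjusted p = 0.00975) at 8 weeks, 1.99 (SE 0.32, adjusted p = 4.41e-06) at 20 weeks and 1.14 (SE 0.30, adjusted p = 0.00314) at 34 weeks. Without CD mouse 5 the last was 1.33 (adjusted p = 0.000250). Each of these calls held on leaving out any single mouse. With the macrophage marker level as a covariate the calls at 8 and 34 weeks were lost (0.31, adjusted p = 0.165 and 0.27, adjusted p = 0.338), and with the progenitor and fibroblast marker level all 3 were lost, at 0.03, 0.13 and 0.25. In bulk samples such as these, fewer cells of a type and less RNA per cell cannot be told apart.

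The diet difference of Tgfb1 was not called as changed between times. Its change was 0.96 (adjusted p = 0.165) from 8 to 20 weeks, -0.86 (adjusted p = 0.200) from 20 to 34 weeks and 0.10 (adjusted p = 0.887) from 8 to 34 weeks. By group mean the order of Tgfb1 was HFD 34, HFD 20, CD 34, HFD 8, CD 20 and CD 8 weeks. The steps from HFD 20 to CD 34 and from HFD 8 to CD 20 weeks were larger than the larger SD of the 2 groups, and the other neighbours in this order were not apart by that much.

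Tgfb3 (Entrez 21809, chr12:86056743-86079041) encodes a ligand known from palate and lung development. Its values at 8 weeks were 15.1, 19.8 and 31.3 CPM in CD and 23.6, 30.9 and 37.2 CPM in HFD mice (lowest, median and highest). At 20 weeks CD mice were at 6.40, 12.8 and 15.4 and HFD mice at 18.1, 20.7 and 26.0 CPM. At 34 weeks CD mice were at 13.5, 24.2 and 39.5 and HFD mice at 14.2, 18.6 and 30.1 CPM. The diets were apart at 20 weeks and overlapped at 8 and 34 weeks, with 4 of 6 HFD mice below the CD mean at 34 weeks. The difference was 0.53 (SE 0.22, adjusted p = 0.0486) at 8 weeks, a call lost in 7 of 10 alternative analyses and on leaving out any of 22 single mice. It was 0.80 (SE 0.22, adjusted p = 0.00233) at 20 weeks and -0.19 (SE 0.20, adjusted p = 0.460) at 34 weeks. From 20 to 34 weeks the diet difference of Tgfb3 changed by -0.99 (SE 0.30, adjusted p = 0.0294). It was the 1 of 9 tested members called there, beside 10.5% of tested genes, and the call was lost on leaving out any of 6 single mice.

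Tgfb2 (Entrez 21808, chr1:186622787-186709697) had the lowest level of the ligands, with a mean log2(CPM + 1) below the filter of 2. At 20 weeks it was at 0.0736, 0.337 and 0.490 CPM in CD and 0.709, 3.20 and 4.07 CPM in HFD mice. The diets did not overlap there, and 5 of 6 HFD mice were above 3 CPM while mouse 4 was far below them. At 8 weeks the values were 0.0860, 0.183 and 0.872 CPM in CD and 0.227, 0.545 and 1.23 CPM in HFD mice. At 34 weeks they were 0.243, 0.558 and 3.88 CPM in CD and 1.06, 1.80 and 3.94 CPM in HFD mice, with overlap. In a fit of 21166 genes without the filter, the difference was 0.33 (SE 0.28, adjusted p = 0.446) at 8 weeks, 1.5001 (SE 0.28, adjusted p = 7.19e-05) at 20 weeks and 0.51 (SE 0.27, adjusted p = 0.173) at 34 weeks. That fit called 24.3%, 35.7% and 25.6% of its genes. The lowest value, 0.0736 CPM, is 1 read, and at such counts the CD groups of 8 and 20 weeks cannot be ordered.

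Tgfbr1 (Entrez 21812, chr4:47353222-47414926) encodes the type 1 receptor, whose kinase acts on Smad2 and Smad3. Its diet difference was called in both directions, lower at 8 weeks and higher later. At 8 weeks it was at 81.4, 101 and 153 CPM in CD and 55.5, 65.7 and 98.4 CPM in HFD mice (lowest, median and highest), and 5 of 6 HFD mice were below all CD mice. At 20 weeks CD mice were at 54.1, 81.2 and 102 and HFD mice at 109, 175 and 234 CPM, without overlap. At 34 weeks CD mice were at 24.9, 43.2 and 61.1 and HFD mice at 59.5, 84.7 and 193 CPM. There 4 of 6 HFD mice were above all CD mice, and 7 of 8 CD mice were below all HFD mice. The difference was -0.62 (SE 0.25, adjusted p = 0.0398) at 8 weeks, 1.11 (SE 0.25, adjusted p = 0.000298) at 20 weeks and 1.24 (SE 0.23, adjusted p = 0.000144) at 34 weeks. Without CD mouse 5 the last was 1.33 (adjusted p = 3.24e-05). The call at 8 weeks was lost without the filter, with the mouse number as a block (-0.62, adjusted p = 0.0519) and on leaving out any of 8 single mice of that time. The call at 20 weeks was lost with the macrophage covariate (0.60, adjusted p = 0.0639), and those at 20 and 34 weeks with the progenitor and fibroblast covariate, at 0.14 and 0.78.

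The diet difference of Tgfbr1 changed by 1.73 (SE 0.35, adjusted p = 0.00932) from 8 to 20 weeks, where it was the 1 of 9 members called (4.49% of tested genes). From 8 to 34 weeks it changed by 1.86 (SE 0.34, adjusted p = 0.000171), and 2 of 9 members were called (28.8%). From 20 to 34 weeks its change was 0.14 (adjusted p = 0.829). By group mean Tgfbr1 was highest in HFD mice at 20 weeks and lowest in CD mice at 34 weeks. The steps from HFD 20 to CD 8 and from HFD 8 to CD 34 weeks were larger than the larger SD of their groups, while the other neighbours in the order were closer.

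Tgfbr2 (Entrez 21813, chr9:116087695-116175363) encodes the type 2 receptor, which binds the ligand. At 8 weeks it was at 64.2, 84.6 and 101 CPM in CD and 61.6, 72.9 and 84.9 CPM in HFD mice. At 20 weeks CD mice were at 56.2, 84.8 and 127 and HFD mice at 118, 134 and 148 CPM. At 34 weeks CD mice were at 50.03, 88.7 and 178 and HFD mice at 75.0, 120.1 and 185 CPM. The diets overlapped at each time, with 4 of 6 HFD mice above all CD mice at 20 weeks, and the highest CD value at 34 weeks was again that of mouse 5. The difference was -0.21 (SE 0.22, adjusted p = 0.453) at 8 weeks, 0.66 (SE 0.22, adjusted p = 0.0106) at 20 weeks and 0.61 (SE 0.20, adjusted p = 0.0169) at 34 weeks. Without CD mouse 5 the last was 0.76 (adjusted p = 0.000839). The call at 20 weeks was lost by edgeR, and that at 34 weeks on leaving out HFD mouse 2 or 3 of that time and when the times were fitted separately. Both marker covariates ended these calls, with values of -0.0088 and -0.41 at 20 weeks, where the sign turned, and 0.07 and 0.10 at 34 weeks (macrophage, then progenitor and fibroblast). The diet difference rose by 0.81 (SE 0.30, adjusted p = 0.0394) from 8 to 34 weeks, and by 0.97 (adjusted p = 0.00446) without CD mouse 5. Leaving out any of 12 other single mice, or the filter, lost that call, and the change from 8 to 20 weeks was 0.87 (adjusted p = 0.0820).

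Tgfbr3 (Entrez 21814, chr5:107106567-107289629), betaglycan, presents ligand to Tgfbr2 and can be shed as a soluble trap. At 8 weeks it was at 121, 130.3 and 204 CPM in CD and 74.9, 103 and 125 CPM in HFD mice, and 5 of 6 HFD mice were below all CD mice. At 20 weeks the values were 81.5, 109 and 148 CPM in CD and 89.6, 116 and 147 CPM in HFD mice. At 34 weeks they were 66.6, 89.1 and 112 and 59.4, 83.7 and 97.8 CPM. The diets overlapped at both later times. The difference was -0.49 (SE 0.16, adjusted p = 0.0108) at 8 weeks, 0.11 (SE 0.16, adjusted p = 0.550) at 20 weeks and -0.12 (SE 0.15, adjusted p = 0.534) at 34 weeks. The call at 8 weeks held on leaving out any single mouse and was lost with the progenitor and fibroblast covariate (-0.45, adjusted p = 0.0898). Its change from 8 to 20 weeks, 0.61 (adjusted p = 0.0857), did not pass the test.

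Smad2 (Entrez 17126), a receptor Smad, had a small spread, with an SE of the diet difference of 0.07 at each time. At 20 weeks it was at 29.8, 37.0 and 42.8 CPM in CD and 37.96, 43.4 and 46.2 CPM in HFD mice, and 5 of 6 HFD mice were above all CD mice. Its values at 8 weeks were 35.4, 42.2 and 47.0 CPM in CD and 41.5, 43.7 and 46.9 CPM in HFD mice. At 34 weeks it was at 41.5, 48.8 and 51.8 and 48.7, 53.1 and 54.9 CPM, with 4 of 6 HFD mice above all CD mice. The difference was 0.08 (adjusted p = 0.386) at 8 weeks, 0.20 (adjusted p = 0.0198) at 20 weeks and 0.16 (adjusted p = 0.0654) at 34 weeks. Without CD mouse 5 the last was 0.18 (adjusted p = 0.0390). At 20 weeks Smad2 was 0.01 (adjusted p = 0.908) with TMM factors and was not called with median-of-ratios factors, by edgeR, by DESeq2, with the times fitted separately or without CD mouse 3 of that time. It was 0.13 (adjusted p = 0.257) with the macrophage and 0.03 (adjusted p = 0.935) with the progenitor and fibroblast covariate.

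Smad3 (Entrez 17127), a receptor Smad that binds DNA directly, showed no call by diet. Its group means lay between 34.1 ± 4.70 CPM (SD, n = 8) in CD mice at 34 weeks and 44.2 ± 11.5 CPM (n = 6) in CD mice at 8 weeks, and the diets overlapped at each time. The difference was -0.24 (adjusted p = 0.170), -0.09 (adjusted p = 0.606) and -0.01 (adjusted p = 0.944) at 8, 20 and 34 weeks. At 8 weeks it was called lower in HFD mice with TMM factors, at -0.35 (adjusted p = 0.0453), with median-of-ratios factors, by edgeR and by DESeq2. Smad4 (Entrez 17128), the partner shared with BMP signalling, lay between 43.6 ± 7.19 CPM in CD mice at 34 weeks and 54.2 ± 4.61 CPM in HFD mice at 8 weeks. Its difference was 0.04 (adjusted p = 0.784), 0.14 (adjusted p = 0.251) and 0.09 (adjusted p = 0.470) at the 3 times.

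Smad7 (Entrez 17131), the inhibitory Smad, varied more between mice. At 8 weeks it was at 88.1, 95.8 and 111 CPM in CD and 85.1, 103 and 186 CPM in HFD mice. At 20 weeks these values were 26.0, 47.0 and 73.6 CPM and 51.4, 55.3 and 67.9 CPM. At 34 weeks they were 7.03, 61.8 and 82.9 CPM and 19.2, 33.1 and 55.6 CPM. The diets overlapped at each time. At 34 weeks CD mice 2 and 6, at 9.70 and 7.03 CPM, were below all HFD mice, while the other 6 CD mice were between 34.9 and 82.9 CPM. This gap was noticed after the values were seen. The diet difference was 0.21 (SE 0.40, adjusted p = 0.681), 0.25 (SE 0.40, adjusted p = 0.610) and -0.28 (SE 0.37, adjusted p = 0.552) at 8, 20 and 34 weeks, with an SE well above the 0.07 of Smad2. At 34 weeks it ran from -0.61 to -0.12 on leaving out single mice and from -0.68 (edgeR and DESeq2) to 0.04 (the mouse number as a block) over the other alternatives, and none of these passed the test.

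**Figure D2:**
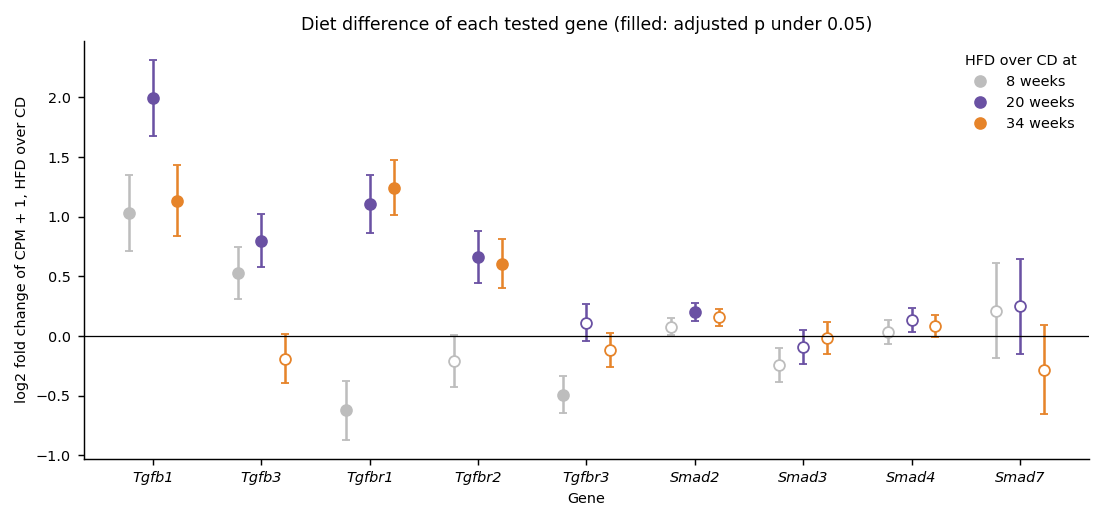
log2 fold change of CPM + 1, HFD over CD (vertical axis), of the 9 tested genes (horizontal axis) at 8, 20 and 34 weeks (grey, purple and orange), with bars for the standard error and filled points for an adjusted p below 0.05. Tgfbr1 is below 0 at 8 weeks and above it at 20 and 34 weeks, and Tgfb1 is above 0 at all 3 times.

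Levels were compared between genes per kilobase of union exon length (GENCODE vM21). In CD mice at 8 weeks Tgfbr3 and Smad7 led with 21.9 ± 4.84 and 21.6 ± 2.10 CPM per kb (SD, n = 6), levels that differed by less than their spread. Tgfbr1 followed at 16.3 ± 3.98 CPM per kb, and Tgfb1 was the ninth of 10 at 4.24 ± 0.979. In HFD mice at 20 weeks Tgfbr1 led with 26.8 ± 7.03 CPM per kb, and Tgfb1 came next at 21.2 ± 4.16. In HFD mice at 34 weeks Tgfb1 led with 26.3 ± 10.04 CPM per kb before Tgfbr1 at 16.3 ± 8.44 and Tgfbr2 at 16.0 ± 5.41, and Smad7 stood at 7.27 ± 2.96. Tgfb2 was the lowest in all 6 groups, between 0.0535 and 0.509 CPM per kb.

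Between 8 and 34 weeks, the older mice of both diets held more Tgfb1 and less Smad7. Time on the diet and age go together in these mice and cannot be told apart, nor can a batch of a time point, since the labels give none. In CD mice Tgfb1 rose by 1.37 (SE 0.30, adjusted p = 0.000203), and by 1.17 (adjusted p = 0.000554) without mouse 5. Tgfbr1 changed by -1.37 (SE 0.23, adjusted p = 7.18e-06) and Smad7 by -1.35 (SE 0.37, adjusted p = 0.00212). The CD group of 34 weeks holds mice 2 and 6, at 9.70 and 7.03 CPM of Smad7. Its Smad7 median was 61.8 CPM, beside 95.8 CPM in CD mice at 8 weeks and 47.0 CPM at 20 weeks. The Smad7 change without both mice was not tested. Tgfbr3 changed by -0.68 (adjusted p = 0.000147), Smad3 by -0.34 (adjusted p = 0.0270) and Smad4 by -0.28 (adjusted p = 0.00982). Smad2 rose by 0.18 (adjusted p = 0.0225), a call lost with TMM factors (0.07, adjusted p = 0.384). In all 7 of 9 members were called in CD mice, beside 64.7% of tested genes.

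In HFD mice over the same span 5 of 9 were called (52.5% of tested genes). Tgfb1 rose by 1.47 (SE 0.32, adjusted p = 0.000304) and Tgfbr2 by 0.77 (adjusted p = 0.00393). Smad7 changed by -1.84 (SE 0.40, adjusted p = 0.000272) and Tgfb3 by -0.61 (adjusted p = 0.0193). Smad2 rose by 0.26 (adjusted p = 0.00415), beside 0.16 (adjusted p = 0.0517) with TMM factors. Smad4 was -0.23 (adjusted p = 0.0515) and was called with TMM factors, at -0.33 (adjusted p = 0.00280). Tgfbr1 did not pass the test over this span (0.50, adjusted p = 0.0893). It rose by 1.32 (adjusted p = 0.000221) from 8 to 20 weeks and changed by -0.82 (adjusted p = 0.0123) from 20 to 34 weeks. The higher Tgfbr1 of HFD mice at 34 weeks thus stood beside CD mice in which Tgfbr1 had fallen.

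From 8 to 20 weeks 1 of 9 members was called in CD mice (3.58% of tested genes), Tgfb3 with -0.81 (SE 0.22, adjusted p = 0.0277). That call held in 32 of 38 fits that each left out 1 mouse. In HFD mice 3 of 9 were called (36.5%), all higher. They were Tgfb1 with 1.25 (adjusted p = 0.00323), Tgfbr1 with the value above and Tgfbr2 with 0.86 (adjusted p = 0.00309). Tgfb3 and Smad7 of HFD mice were -0.54 (adjusted p = 0.0517) and -0.98 (adjusted p = 0.0512), and both were called as lower with TMM factors (-0.59, adjusted p = 0.0229 and -1.04, adjusted p = 0.0331). Smad7 of CD mice was -1.02 (adjusted p = 0.159) over that span, and the diets were not called as different in it (0.04, adjusted p = 0.972).

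From 20 to 34 weeks 4 of 9 were called in CD mice (62.5% of tested genes). Tgfb1 rose by 1.08 (adjusted p = 0.00236), and by 0.88 (adjusted p = 0.00704) without mouse 5, Tgfb3 by 0.92 (adjusted p = 0.000259) and Smad2 by 0.33 (adjusted p = 0.000142), while Tgfbr1 changed by -0.96 (adjusted p = 0.000617). With TMM factors, which shifted the median of all genes here from 0.17 to 0.03, 7 members were called and Smad2 was 0.19 (adjusted p = 0.0145). The 3 added were Tgfbr3 (-0.45, adjusted p = 0.00588), Smad3 (-0.32, adjusted p = 0.0371) and Smad4 (-0.32, adjusted p = 0.00174), and without mouse 5 Tgfbr3 was called in the main scaling too (-0.34, adjusted p = 0.0463). In HFD mice 3 of 9 were called (30.2%). Smad2 rose by 0.28 (adjusted p = 0.00504), Tgfbr3 changed by -0.54 (adjusted p = 0.00965), and Tgfbr1 by the value above.

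Ratios between members within a mouse, of CPM + 1, are given with no test (mean log2 ratio ± SD, n = 6 or 8). The added 1 lets them change with the scaling of a library, most for low genes. Tgfbr2 to Tgfbr1, the type 2 to the type 1 receptor, was -0.31 ± 0.39 in CD and 0.11 ± 0.35 in HFD mice at 8 weeks, 0.09 ± 0.16 in CD and -0.35 ± 0.34 in HFD mice at 20 weeks and 1.01 ± 0.38 in CD and 0.38 ± 0.29 in HFD mice at 34 weeks. Its mean was higher in HFD mice at 8 weeks and lower at 20 and 34 weeks, with overlap of the diets each time. Tgfbr3 to Tgfbr2 was 0.73 ± 0.23 in CD and 0.45 ± 0.37 in HFD mice at 8 weeks, 0.37 ± 0.17 in CD and -0.17 ± 0.35 in HFD mice at 20 weeks and 0.10 ± 0.55 in CD and -0.62 ± 0.57 in HFD mice at 34 weeks. Its mean was lower in HFD mice at all 3 times, again with overlap. Tgfb3 to Tgfb1 was 0.01 ± 0.62 in CD and -0.49 ± 0.44 in HFD mice at 8 weeks, -1.09 ± 0.35 in CD and -2.28 ± 0.32 in HFD mice at 20 weeks and -1.25 ± 0.73 in CD and -2.58 ± 1.02 in HFD mice at 34 weeks, and the diets did not overlap at 20 weeks.

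Smad3 to Smad2, the receptor Smads, was 0.05 ± 0.31 in CD and -0.27 ± 0.20 in HFD mice at 8 weeks, 0.04 ± 0.22 in CD and -0.25 ± 0.21 in HFD mice at 20 weeks and -0.47 ± 0.26 in CD and -0.64 ± 0.32 in HFD mice at 34 weeks. Smad7 to Smad3, the inhibitor to a receptor Smad, was 1.16 ± 0.26 in CD and 1.61 ± 0.39 in HFD mice at 8 weeks, 0.30 ± 0.48 in CD and 0.64 ± 0.27 in HFD mice at 20 weeks and 0.15 ± 1.26 in CD and -0.12 ± 0.28 in HFD mice at 34 weeks. In CD mice 2 and 6 of 34 weeks it was -1.32 and -2.24. The means of both Smad ratios were lower at 34 than at 8 weeks in both diets, and the diets overlapped at each time.

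**Figure D3:**
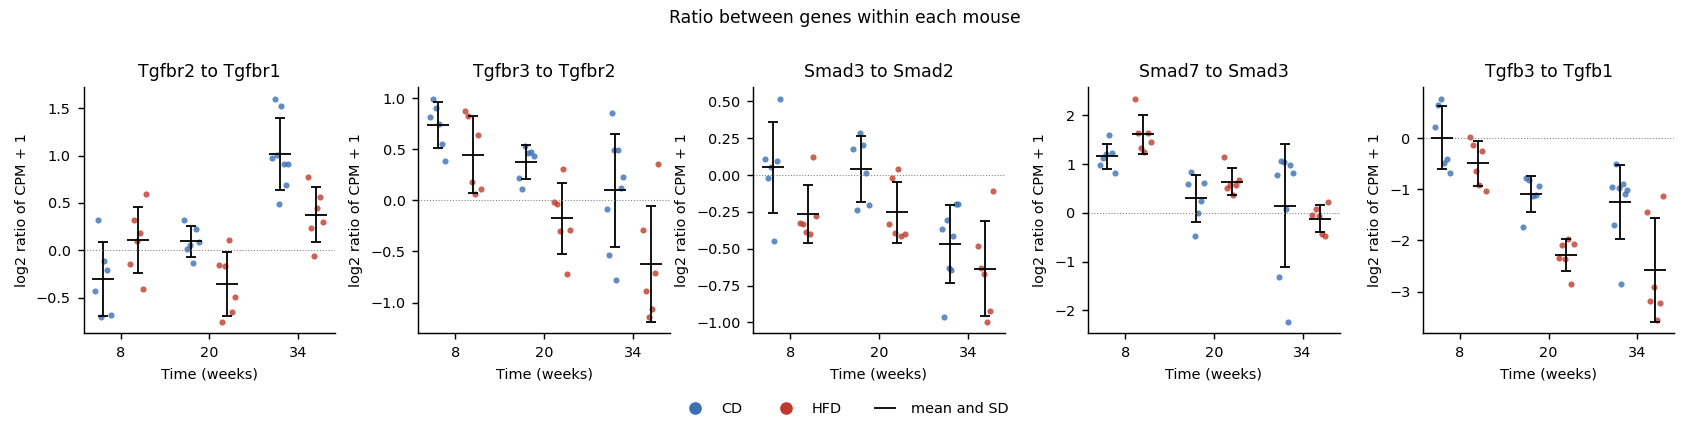
log2 ratio of CPM + 1 between 2 genes within each mouse (vertical axes) at 8, 20 and 34 weeks (horizontal axes), CD in blue and HFD in red, with bars for the mean and SD and a dotted line at 0. The ratio of Tgfb3 to Tgfb1 at 20 weeks is the panel and time at which all HFD mice lie below all CD mice.

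Markers of other cells moved with the diet. Of 14 macrophage markers listed 13 were tested, and 7, 9 and 11 were higher in HFD mice at 8, 20 and 34 weeks, with Cd163 lower at 20 weeks. Their summed level ranged from 476 to 1908 CPM in CD and 1223 to 3339 CPM in HFD mice at 8 weeks. It ranged from 1101 to 3669.7 and 4705 to 9574 CPM at 20 weeks and from 1269 to 13347 and 5403 to 16174 CPM at 34 weeks. In CD mouse 5 of 34 weeks their mean log2(CPM + 1) was 9.07, beside 7.21 ± 1.03 in its group and 8.51 ± 0.60 in HFD mice of that time. Of 10 progenitor and fibroblast markers 8 were tested, and 5, 7 and 5 were higher in HFD mice. Their mean log2(CPM + 1) was 3.44 ± 0.42 in CD and 5.48 ± 0.41 in HFD mice at 20 weeks. Their summed level, mostly Gsn, was 11637 to 14269 CPM in CD and 9970.3 to 15961 CPM in HFD mice at that time.

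Of the 9 endothelial markers 9, 7 and 7 were higher in HFD mice at 8, 20 and 34 weeks, and of 7 mural cell markers 5, 4 and 3 were higher and 0, 1 and 1 lower. Of 8 markers of lipid-associated macrophages 7, 7 and 5 were higher and 0, 1 and 0 lower. Of 11 adipocyte markers 2, 8 and 10 were lower and 1, 1 and 0 higher. Of 6 mesothelial markers 3 were tested, and 2, 0 and 0 were higher. Of 6 T cell and 4 B cell markers 0 passed the filter, and Cd3d and Cd3g had no read in CD mice at 8 weeks.

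With the mean macrophage marker level of each mouse as a covariate, the Tgfb1 difference was 0.31 (adjusted p = 0.165) at 8 weeks, 0.91 (adjusted p = 0.000583) at 20 weeks and 0.27 (adjusted p = 0.338) at 34 weeks. That of Tgfbr2 was -0.65 (adjusted p = 0.00121), -0.0088 (adjusted p = 0.974) and 0.07 (adjusted p = 0.792). Tgfbr2 thus lost its calls at 20 and 34 weeks and was called lower in HFD mice at 8 weeks. Tgfbr1 kept its sign at each time, with -0.96 (adjusted p = 0.00161), 0.60 (adjusted p = 0.0639) and 0.84 (adjusted p = 0.0156). In the same fit Tgfb3 was 0.83 (adjusted p = 0.0136) at 20 weeks and Tgfbr3 -0.45 (adjusted p = 0.0341) at 8 weeks, near their values without the covariate. That fit called 3979, 3654 and 1145 of 10343 genes at 8, 20 and 34 weeks, against 4648, 5894 and 4468 without the covariate. Between times, the Tgfb1 change from 8 to 34 weeks was 0.22 (adjusted p = 0.346) in CD and 0.18 (adjusted p = 0.572) in HFD mice with this covariate, and that of Tgfbr2 in HFD mice was -0.03 (adjusted p = 0.911). The change of Smad7 over that span was -1.27 (adjusted p = 0.0214) in CD and -1.76 (adjusted p = 0.0171) in HFD mice, and that of Tgfbr1 in CD mice -1.91 (adjusted p = 5.59e-07).

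With the progenitor and fibroblast level as covariate, the differences at 20 weeks were 0.13 (adjusted p = 0.898) for Tgfb1, 0.14 (adjusted p = 0.892) for Tgfbr1, -0.41 (adjusted p = 0.498) for Tgfbr2 and 0.70 (adjusted p = 0.329) for Tgfb3. At 34 weeks that of Tgfbr1 was 0.78 (adjusted p = 0.0611) and that of Tgfb1 0.25 (adjusted p = 0.600). At 8 weeks Tgfbr1 was -1.14 (adjusted p = 0.00282), Tgfb1 0.03 (adjusted p = 0.954) and Tgfbr3 -0.45 (adjusted p = 0.0898), while Tgfbr2 was called lower in HFD mice, at -0.78 (adjusted p = 0.00867). That fit called 2509, 214 and 440 of 10343 genes at the 3 times. Between 8 and 34 weeks Tgfb1 kept its calls with this covariate, at 0.75 (adjusted p = 0.00641) in CD and 0.97 (adjusted p = 0.00140) in HFD mice. Tgfbr2 of HFD mice was also called, at 0.48 (adjusted p = 0.0365). Smad7 changed by -1.30 (adjusted p = 0.00840) in CD and -1.80 (adjusted p = 0.00107) in HFD mice, and Tgfbr1 of CD mice by -1.69 (adjusted p = 4.71e-07). Which cells the differences of the members arose in was not tested.

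**Figure D4:**
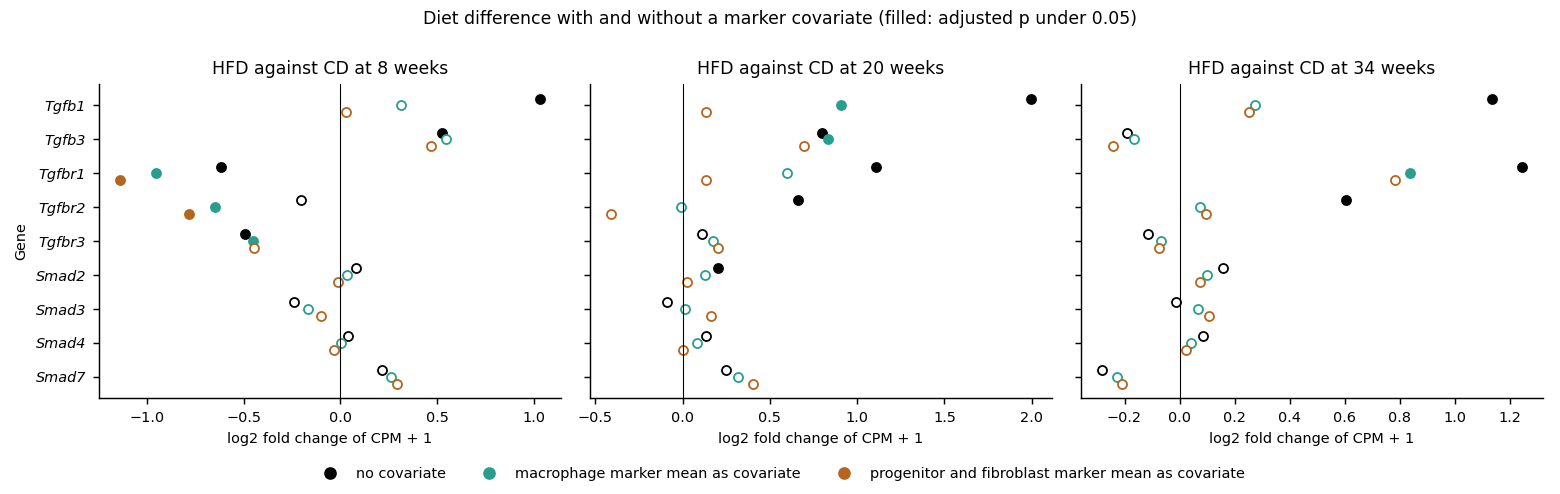
log2 fold change of CPM + 1, HFD over CD (horizontal axes), of the 9 tested genes (rows) at 8, 20 and 34 weeks, without a covariate (black), with the macrophage marker mean (green) and with the progenitor and fibroblast marker mean (brown) as covariate, filled where the adjusted p is below 0.05. Tgfbr1 at 8 weeks lies below 0 in all 3 fits, and Tgfb1 lies closer to 0 with either covariate.

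Of 13 genes that hold TGF-beta latent or release it, 11 were tested. At 8, 20 and 34 weeks 6, 9 and 5 were higher and 1, 0 and 1 lower in HFD mice, beside 44.9%, 57.0% and 43.2% of tested genes called in either direction. The 7 calls at 8 weeks were 4 without CD mouse 3 of that time, and the 6 at 34 weeks were 3 without HFD mouse 3 and 9 without CD mouse 5. Their median difference was 0.54, 1.35 and 1.03, beside 0.11, 0.14 and 0.07 for all tested genes. Fbn1, the microfibril protein to which latent complexes bind, was at 9.20 ± 9.35 in CD and 103 ± 48.2 CPM in HFD mice (log2 fold change 3.57, adjusted p = 5.38e-07) at 20 weeks. It differed by 2.44 (adjusted p = 0.000236) at 8 weeks and 1.32 (adjusted p = 0.0205) at 34 weeks. Nrros, which tethers latent TGF-beta on myeloid cells, was at 18.6 ± 14.4 in CD and 126 ± 37.5 CPM in HFD mice (log2 fold change 2.94, adjusted p = 7.88e-06) at 20 weeks. Ltbp1, a latent TGF-beta binding protein, was lower at 8 weeks with -0.82 (adjusted p = 0.0308) and higher at 20 weeks with 0.82 (adjusted p = 0.0234), the directions of Tgfbr1 at these times. At 34 weeks, where Tgfbr1 was called higher, Ltbp1 was not called (0.54, adjusted p = 0.126). Ltbp2, of the same family, was higher at 8 and 20 weeks, with 0.54 (adjusted p = 0.00381) and 0.50 (adjusted p = 0.00453), and lower at 34 weeks with -0.42 (adjusted p = 0.0138).

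Of 9 co-receptors and other type 1 and type 2 receptors, 8 were tested, and 1, 2 and 2 were higher and 1, 2 and 1 lower at the 3 times. These are 2, 4 and 3 of 8, beside 44.9%, 57.0% and 43.2% of all tested genes. The medians of the 8 receptors were -0.09, -0.0022 and 0.18. Eng, the endothelial co-receptor endoglin, was higher at each time, by 1.31 (adjusted p = 0.00582), 1.31 (adjusted p = 0.00358) and 1.65 (adjusted p = 0.000516). Acvrl1, the endothelial type 1 receptor ALK1, was not called at 8 weeks (0.48, adjusted p = 0.140). It was higher by 1.23 (adjusted p = 0.000219) at 20 weeks and 0.84 (adjusted p = 0.00728) at 34 weeks. As given above, 9, 7 and 7 of 9 endothelial markers were higher at 8, 20 and 34 weeks. The activin receptors Acvr1b (ALK4) and Acvr1c (ALK7), which signal through Smad2 and Smad3 as Tgfbr1 does, were called lower at some times. Acvr1b was at 159.8 ± 28.5 in CD and 63.1 ± 15.0 CPM in HFD mice (log2 fold change -1.35, adjusted p = 1.73e-05) at 8 weeks and at 212 ± 33.3 in CD and 71.0 ± 20.3 CPM in HFD mice (log2 fold change -1.60, adjusted p = 4.27e-07) at 20 weeks. At 34 weeks it was not called, at -0.14 (adjusted p = 0.594). Acvr1c was not called at 8 weeks, at -0.39 (adjusted p = 0.136), and differed by -1.14 (adjusted p = 4.02e-05) at 20 weeks and -0.83 (adjusted p = 0.00151) at 34 weeks.

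Of 4 other Smads 3 were tested, and 0 were higher while 2, 2 and 0 were lower at the 3 times, with medians of -0.34, -0.39 and -0.07. These are 2, 2 and 0 of 3, beside 44.9%, 57.0% and 43.2% of all tested genes. The 2 calls at 8 weeks were 0 without HFD mouse 3 or 4 of that time and 1 without any of 6 other single mice of that time. Smad1 and Smad5, Smads of BMP signalling, were lower at 8 weeks, with -0.37 (adjusted p = 0.0338) and -0.28 (adjusted p = 0.0218), and Smad5 also at 20 weeks, with -0.39 (adjusted p = 0.00128). Smad6, the inhibitory Smad of BMP signalling, was at 24.7 ± 6.38 in CD and 12.4 ± 1.84 CPM in HFD mice (log2 fold change -0.92, adjusted p = 0.00156) at 20 weeks. It was not called at 8 weeks (-0.34, adjusted p = 0.253) or 34 weeks (-0.07, adjusted p = 0.805).

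Of 15 feedback genes and modifiers of Smad signalling 14 were tested, and 1, 3 and 6 were higher and 0, 1 and 3 lower, with medians of -0.06, 0.06 and 0.19. These are 1, 4 and 9 of 14, beside 44.9%, 57.0% and 43.2% of all tested genes. The count at 8 weeks was 2 without CD mouse 6 or HFD mouse 2 of that time or CD mouse 5 or 6 of 34 weeks, and up to 5 under other fits. At 20 weeks it was 7 without CD mouse 2 of 34 weeks and with TMM factors. At 34 weeks it was 5 without CD mouse 6 or HFD mouse 2 or 3 of that time. Nedd4l, a ubiquitin ligase that degrades activated Smad2 and Smad3, was higher at each time, by 0.96 (adjusted p = 0.000208), 1.41 (adjusted p = 4.17e-07) and 0.78 (adjusted p = 0.000931). Tgif1, a corepressor of Smad2, was higher by 1.88 (adjusted p = 0.00133) at 20 weeks and 1.82 (adjusted p = 0.00187) at 34 weeks. Ppm1a, a phosphatase of Smad2 and Smad3, was lower at these times, with -0.53 (adjusted p = 8.04e-06) and -0.36 (adjusted p = 0.00101). Neither was called at 8 weeks, with 1.11 (adjusted p = 0.0605) for Tgif1 and -0.18 (adjusted p = 0.0974) for Ppm1a. Skil (SnoN), a corepressor induced by TGF-beta, was called at 34 weeks with 0.82 (adjusted p = 0.0313), beside -0.61 (adjusted p = 0.132) at 8 weeks and -0.16 (adjusted p = 0.694) at 20 weeks.

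Of 19 known target genes 18 were found and 16 tested. At 8, 20 and 34 weeks 7, 10 and 5 were higher and 0, 1 and 0 lower in HFD mice, with medians of 0.72, 1.66 and 0.40. These are 7, 11 and 5 of 16, beside 44.9%, 57.0% and 43.2% of all tested genes, and the 5 at 34 weeks were 3 without HFD mouse 2 and 6 without CD mouse 5. With the macrophage covariate 5, 7 and 0 of them were called, and with the progenitor and fibroblast covariate 1, 0 and 0. Of all 10343 tested genes these fits called 3979, 3654 and 1145, and then 2509, 214 and 440. The latency genes above gave 6, 6 and 0 and then 2, 0 and 0 in these fits. The co-receptors and other receptors gave 1, 3 and 0 and then 1, 0 and 0, the other Smads 1, 1 and 0 and then 0 at each time, and the feedback genes 2 at each time and then 3, 0 and 0. Col1a1, a fibrillar collagen, was at 21.6 ± 10.8 in CD and 156 ± 116 CPM in HFD mice (log2 fold change 2.55, adjusted p = 0.000461) at 8 weeks and at 18.1 ± 17.3 in CD and 201 ± 80.3 CPM in HFD mice (log2 fold change 3.66, adjusted p = 1.60e-06) at 20 weeks. At 34 weeks its difference was 0.14 (adjusted p = 0.845). Postn, the matricellular protein periostin, was at 20.1 ± 9.68 in CD and 141 ± 36.2 CPM in HFD mice (log2 fold change 2.86, adjusted p = 7.14e-05) at 20 weeks. It was also higher at 8 weeks with 2.02 (adjusted p = 0.00463) and at 34 weeks with 1.57 (adjusted p = 0.0168). Tagln, an actin-binding protein of contractile cells, was higher at 20 weeks with 1.34 (adjusted p = 0.00730), and Id1, a gene that BMP signalling raises, was lower at 20 weeks with -0.80 (adjusted p = 0.0390). Neither was called at 8 or 34 weeks. At these times Tagln was 0.52 (adjusted p = 0.322) and -0.17 (adjusted p = 0.749), and Id1 -0.70 (adjusted p = 0.0800) and -0.44 (adjusted p = 0.252). Fibroblasts express several of these genes, their markers moved with the diet as given above, and their part in these counts was not tested.

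**Figure D5:**
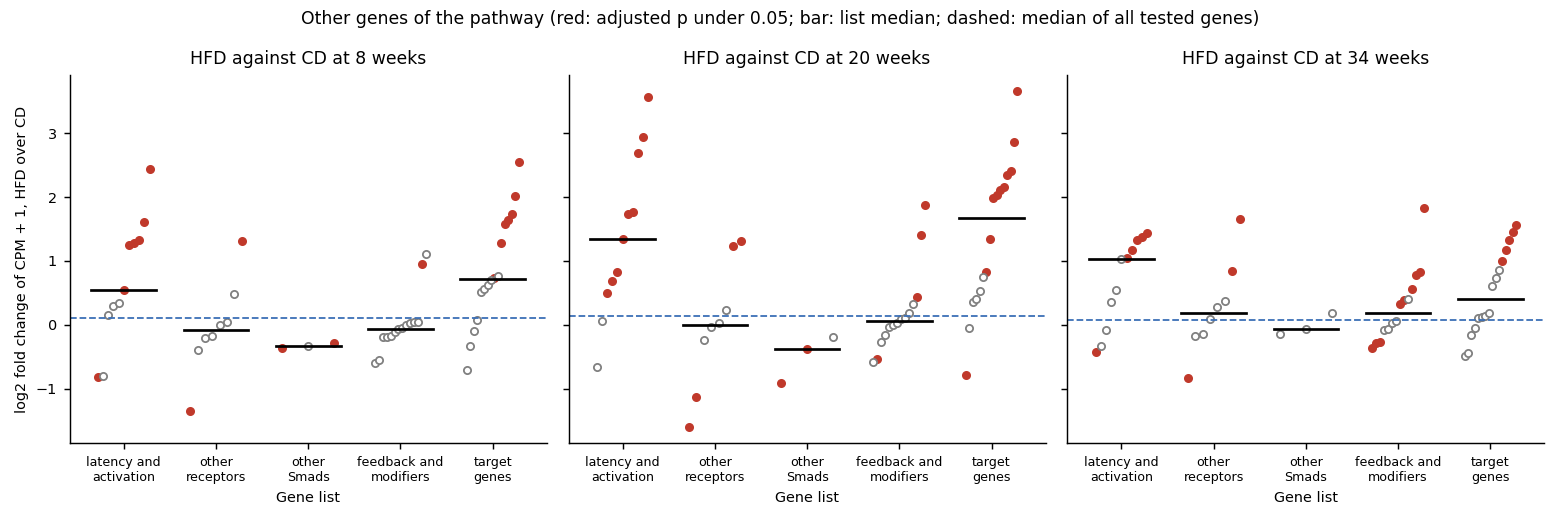
log2 fold change of CPM + 1, HFD over CD (vertical axis), of each tested gene in 5 lists of pathway genes (horizontal axes) at 8, 20 and 34 weeks, red where the adjusted p is below 0.05, with a black bar at the list median and a dashed line at the median of all tested genes. At 20 weeks the medians of the latency list and of the target genes lie highest above the dashed line.

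The genes most like a member over the 38 mice, after taking the group mean from each mouse, are given by Pearson's r. This is a description, since all genes of a mouse share its library and its mix of cells. Tgfb1 was most like Coro1c (0.96), Actr3 (0.95) and Arpc2 (0.94), of which Actr3 and Arpc2 encode subunits of the Arp2/3 actin complex. Tgfb3 was most like Ap3m2 (0.86), Ehd3 (0.85) and Prkag3 (0.83). Tgfbr1 was most like Pum2 (0.92), Ahr (0.89) and Sgms1 (0.88), Tgfbr2 like Mapre2 (0.92), Arhgef2 (0.90) and Cltc (0.90) and Tgfbr3 like Atf2 (0.78), Bicc1 (0.78) and Bcl2 (0.78). Smad2 was most like Nup50 (0.75), Mgat1 (0.73) and Fbxl14 (0.71), Smad3 like Noc3l (0.80), Nol8 (0.77) and Srfbp1 (0.77) and Smad4 like Atxn7 (0.91), Herc2 (0.90) and Ash1l (0.89). Smad7 was most like Thbs1 (0.87), Tnfrsf12a (0.86) and Fosl1 (0.86), of which Thbs1 encodes thrombospondin 1, an activator of latent TGF-beta, and Fosl1 an AP-1 subunit. In CD mice 2 and 6 of 34 weeks Smad7 was at 9.70 and 7.03 CPM, far below their group median of 61.8 CPM. These mice weigh heavily in the r of Smad7, and its values without them were not computed. Between members the highest r was 0.86 for Tgfb1 with Tgfbr2, and the lowest was -0.24 for Tgfb1 with Smad3. Tgfbr1 had 0.69 with Tgfbr2 and 0.69 with Smad4. Among the 9 tested members, Tgfb1 and Tgfbr2 were thus the pair with the highest r. CD mouse 5 at 34 weeks lay far above its group for both, at 145.5 and 177.6 CPM. The r of this pair without that mouse was not computed.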

How the data were processed

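Reads had been aligned by the authors to mm10 (GRCm38) with STAR (2.5 and 2.5.2b in the submitters' processing notes) and counted over union exons of GENCODE vM2 with featureCounts (Subread 1.5.1). Genes lacking an Entrez identifier were dropped. The deposited unit is CPM, which the authors gave as 1 column per mouse, while 114 labelled samples are 3 technical replicates of each of 38 mice. Every column sums to 1000000, so that no TMM factor is visible, although the methods state one. Every CPM value was a whole number of reads (within 0.1 reads). Whether counting used strand is not given in the sources used here. Reads carry no molecular identifiers, so depth gives counting error only.

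Here log2(CPM + 1) was fitted with limma 3.58.1 in R 4.3.3, for 10343 genes with a mean above 2 in the 38 mice, as 6 groups with a mean-variance trend and 32 residual degrees of freedom. Tests were two-sided, with Benjamini-Hochberg adjustment over all tested genes. Mice are the replicates. The 12 contrasts compared diets at a time, times within a diet and the diet difference between times. Fits were tested on simulated data. The members and the gene lists were chosen with earlier results of these data known. The text names the 10 members, per list up to 2 genes with the largest rise and 2 with the largest fall among those called by diet, the 3 genes most like each tested member (predicted genes passed over) and defining markers. Ctgf and Adgre1 of these lists are not analysed here. Alternatives were a pseudocount of 0.5, no filter, TMM and median-of-ratios factors on the recovered reads, edgeR 4.0.16, DESeq2 1.42.0, the mouse number as a block, 2 marker covariates, times fitted separately, and each mouse left out.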

Additional observations from a re-analysis of the deposited data

Results flagged for a closer look

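In 5 of 60 groups of values (10 genes in 6 groups) a single mouse lay beyond Dixon's 95% limit, which chance gives in about 1 in 20. CD mouse 5 at 34 weeks was at 145.5 CPM for Tgfb1, with the other 7 mice at 25.9 to 80.6 CPM. The same mouse was at 177.6 CPM for Tgfbr2, with the others at 50.03 to 97.2 CPM. Tgfb2 was at 0.872 CPM in CD mouse 6 at 8 weeks (others 0.0860 to 0.370 CPM) and at 0.709 CPM in HFD mouse 4 at 20 weeks (others 3.11 to 4.07 CPM). Smad3 was at 46.1 CPM in HFD mouse 5 at 8 weeks (others 32.8 to 35.9 CPM).

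The effect of the diet differed between times by an interaction term of limma for 3 members, in 27 such terms over 9 members. At 20 against 8 weeks 1 of 9 was called (4.49% of tested genes). At 34 against 20 weeks 1 was called (10.5%), and at 34 against 8 weeks 2 were (28.8%). For Tgfbr1 the diet difference rose by 1.73 (SE 0.35, adjusted p = 0.00932) from 8 to 20 weeks and by 1.86 (SE 0.34, adjusted p = 0.000171) from 8 to 34 weeks, and its direction turned from lower to higher in HFD mice. For Tgfbr2 it rose by 0.81 (SE 0.30, adjusted p = 0.0394) from 8 to 34 weeks. For Tgfb3 it changed by -0.99 (SE 0.30, adjusted p = 0.0294) from 20 to 34 weeks. The calls of Tgfbr2 and Tgfb3 were lost on leaving out some single mice, as given with each gene. That of Tgfb3 held in 32 of 38 such fits.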

How the results depend on the processing

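Members called by diet numbered 4, 5 and 3 at 8, 20 and 34 weeks, and 2 to 4, 4 to 5 and 2 to 4 on leaving out 1 mouse. The count at 8 weeks was 2 without the filter and 2 with the progenitor and fibroblast covariate. At 20 weeks it was 3 by edgeR, 2 with the macrophage and 0 with the progenitor covariate, and at 34 weeks 1 and 0 with these covariates. For the change of the diet difference 1, 1 and 2 members were called (20 against 8, 34 against 20 and 34 against 8 weeks), and 1 to 3, 0 to 1 and 1 to 3 without single mice. The first was 2 with the macrophage and 0 with the progenitor covariate, the second 0 with the progenitor covariate and the third 1 without the filter. In CD mice the counts over the same spans were 1, 4 and 7, and 0 to 1, 4 to 6 and 6 to 7 without single mice. The first was 2 with the macrophage covariate, and the second 7 with TMM or median-of-ratios factors, by edgeR and by DESeq2. In HFD mice they were 3, 3 and 5, and 3 to 5, 3 to 4 and 4 to 6 without single mice. The first was 5 with TMM or median-of-ratios factors, by edgeR, by DESeq2 and with the replicate block, 1 with the macrophage and 0 with the progenitor covariate. The second was 5 by DESeq2, and the third 1 with the macrophage covariate. The causes were not tested.

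Tgfbr2 changed sign at 20 weeks, to -0.0088 with the macrophage and -0.41 with the progenitor covariate, and in HFD mice at 34 against 8 weeks, to -0.033 with the macrophage covariate. Same-numbered mice share only a number: the correlation of their deviations from the group means ran from -0.51 to 0.53 over 18 pairs (median -0.07), and 8 exceeded 0.1. With the mouse number as a replicate block, 3, 5 and 3 members were called by diet at 8, 20 and 34 weeks. Depth limits Tgfb2, which had 1 to 60 reads in a mouse.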
